A study of Mus musculus with 2 samples.

Results

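The genes of the VEGF and angiopoietin systems were followed in single cells of mouse lung. The 9 genes were Vegfa, Kdr, Flt1, Flt4, Nrp1, Nrp2, Tek, Tie1 and Angpt2, out of 31053 genes in the files, and each was found by its symbol in both libraries. They comprised 2 ligands (Vegfa and Angpt2) and 7 receptors or co-receptors.

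Vegfa is the growth factor that drives the growth, survival and leakiness of blood vessels. It acts mainly through Kdr, the chief signalling VEGF receptor. Flt1 binds Vegfa tightly and, in its soluble form, works as a decoy, while Flt4 takes up the related ligands Vegfc and Vegfd and is best known from lymphatic vessels. Nrp1 and Nrp2 are co-receptors shared by VEGF ligands and class 3 semaphorins. The angiopoietins act on Tek, also called TIE2, which stabilises resting vessels. Tie1 is the partner of Tek, and Angpt2 is a context-dependent ligand that often weakens Tek signalling. In the lung, Vegfa from the alveolar epithelium is known to maintain the capillary cells that lie against it. Those capillaries hold general capillary cells and aerocytes, a second, very thin capillary cell type marked by Car4.

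The mice were NG2tdT animals (NG2-Cre-ER crossed to the Ai14 tdTomato reporter). Tamoxifen at 2 mg per 30 g of body weight switched on a red reporter in cells with NG2 promoter activity, and the mice then rested for 7 days. The Normoxia library came from untreated mice and the Hypoxia library from mice kept at 10% inspired oxygen for 21 days. Both were labelled as sorted reporter cells. The study instead describes lung cells of wild-type mice after hypoxia, depleted of leukocytes and epithelium and combined with published hypoxic and normoxic cells. It gives no account of single-cell libraries from reporter mice. The study's methods give the age of its mice as 2 to 4 months, not by group. Whether animals were pooled is not given in the sources used here. Each group was a single library, so the spread between replicates is unknown and no test between groups was made. Every ratio is a difference between these 2 libraries, and each interval is a 95% interval that covers counting error only.

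After filtering, 293 Normoxia and 453 Hypoxia cells remained, with medians of 3135 and 2818 UMIs (a UMI is a molecular barcode that marks 1 transcript read out). Cspg4, the gene of NG2, had a UMI in 1 Normoxia and 2 Hypoxia cells, and no cluster met the rule for pericyte-like cells. A pair of cell barcodes occurred in both libraries, and 1 Normoxia and 2 Hypoxia cells carried them. Joint clustering with the 9 genes and 71 further pathway genes held out gave 13 clusters. Clusters 1, 2, 9 and 13 carried 10 to 12 of 12 endothelial markers and were called endothelial cell-like, with 94 Normoxia and 195 Hypoxia cells. Clusters 1 and 2 were general capillary-like (71 and 169 cells), cluster 9 was aerocyte-like (19 and 20 cells) and cluster 13 was lymphatic-like (4 and 6 cells). The largest endothelial cell-like cluster was cluster 2 in Normoxia (44 cells) and cluster 1 in Hypoxia (120 cells). Cluster 8 (23 cells in each library) also met 11 of 12 endothelial markers but was led by Scgb1a1, a secretory airway gene, with Vwf and Edn1, and stayed unnamed. In its Normoxia cells the summed level of 5 alveolar type 2 markers reached 2193 UMIs against 522 in Hypoxia, and that of 3 club cell markers 7003 against 15091. Levels are given as CPM, the UMIs of a gene scaled to 1000000 UMIs of the cells named. The method counts transcript ends, so levels were not divided by length, and isoforms such as soluble Flt1 could not be told apart.

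On GRCm38, Vegfa lies on chromosome 17 from 46016993 to 46032369, Kdr on chromosome 5 from 75932827 to 75978458 and Flt1 on chromosome 5 from 147561604 to 147726011, all on the minus strand. Flt4 lies on chromosome 11 from 49609263 to 49652739, Nrp1 on chromosome 8 from 128358604 to 128503363 and Nrp2 on chromosome 1 from 62703285 to 62818695, all on the plus strand. Tek (chromosome 4 from 94739289 to 94874976, plus strand) and Tie1 (chromosome 4 from 118471191 to 118490061, minus strand) share a chromosome. Angpt2 on chromosome 8 from 18690263 to 18741562 lies on the minus strand and overlaps Mcph1 on the opposite strand. Mcph1 had 6 Normoxia and 8 Hypoxia UMIs over all barcodes.

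RefSeq held promoters for 8 of the 9 genes and none for Angpt2. The 250 bases before the start are shown for 3 of the 4 genes that set the capillary cells apart below, Kdr, which was high in aerocyte-like cells, and Tek and Vegfa, which were high in general capillary-like cells. The window of Nrp1, the fourth, lies partly in a longer GENCODE transcript and is not shown, and the last 3 bases of the Kdr window also lie in its transcript. Capitals mark GGAA, the core letters bound by ETS factors, or its reverse complement TTCC (build GRCm38.p6, 5′ to 3′ on the gene's strand, the upstream start for Vegfa).
Kdr, chr5:75978456-75978705, strand minus: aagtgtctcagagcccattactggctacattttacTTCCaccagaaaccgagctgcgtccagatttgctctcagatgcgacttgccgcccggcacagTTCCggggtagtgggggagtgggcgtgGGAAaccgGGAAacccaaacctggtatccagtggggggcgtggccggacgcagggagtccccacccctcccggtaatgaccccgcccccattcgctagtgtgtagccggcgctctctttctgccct
Tek, chr4:94739039-94739288, strand plus: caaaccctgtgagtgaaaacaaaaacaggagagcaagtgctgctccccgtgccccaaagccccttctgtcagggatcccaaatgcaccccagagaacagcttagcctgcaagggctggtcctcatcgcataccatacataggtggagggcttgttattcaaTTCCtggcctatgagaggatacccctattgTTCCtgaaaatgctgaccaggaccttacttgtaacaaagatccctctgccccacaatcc
Vegfa, chr17:46032378-46032627, strand minus: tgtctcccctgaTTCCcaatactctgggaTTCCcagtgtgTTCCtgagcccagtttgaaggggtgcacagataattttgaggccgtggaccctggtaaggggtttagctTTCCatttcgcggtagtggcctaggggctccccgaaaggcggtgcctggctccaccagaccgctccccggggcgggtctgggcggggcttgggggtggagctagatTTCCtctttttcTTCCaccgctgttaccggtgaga
The GGAA letters, searched on both strands, occurred 4 times in the Kdr window, 2 times in that of Tek and 6 times in that of Vegfa. They are common letters, present in 93.4% of the 32851 windows of the same length, with a median of 3 matches. ACGTG, a form of the core of the element bound by hypoxia-inducible factors, was in none of these 3 windows. Other forms of this core were not searched, among them GCGTG, which the Kdr window holds. ACGTG was found in 1 of the 9 windows of the genes studied, that of a second, downstream Vegfa start, against 16.6% of all windows. Sequence outside these windows of 250 bases was not searched, so elements further from the starts are not covered.

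Endothelial cell-like cells held most transcripts of 7 genes in Normoxia and of 8 in Hypoxia. Of the UMIs of all genes they held 266068 of 1112485 in Normoxia and 678936 of 1592173 in Hypoxia, a larger part in Hypoxia. The share of all genes with most UMIs in these cells is not given here. In Normoxia they held 75.9% of Vegfa UMIs, 81.1% of Kdr, 70.7% of Flt1, 96.0% of Flt4, 77.8% of Nrp1, 88.0% of Tek and 89.2% of Tie1. In Hypoxia these shares ran from 82.2% for Flt1 to 93.7% for Vegfa. Nrp2 and Angpt2 stood apart, with 27.8% and 26.9% in Normoxia and 46.2% and 57.1% in Hypoxia, on only 18 and 26 UMIs and then 39 and 14 UMIs. Cluster 8 held 22.4% of Flt1 UMIs in Normoxia and 11.3% in Hypoxia, and 8.3% or less of Kdr, Tek and Tie1 UMIs.

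**Figure D1:**
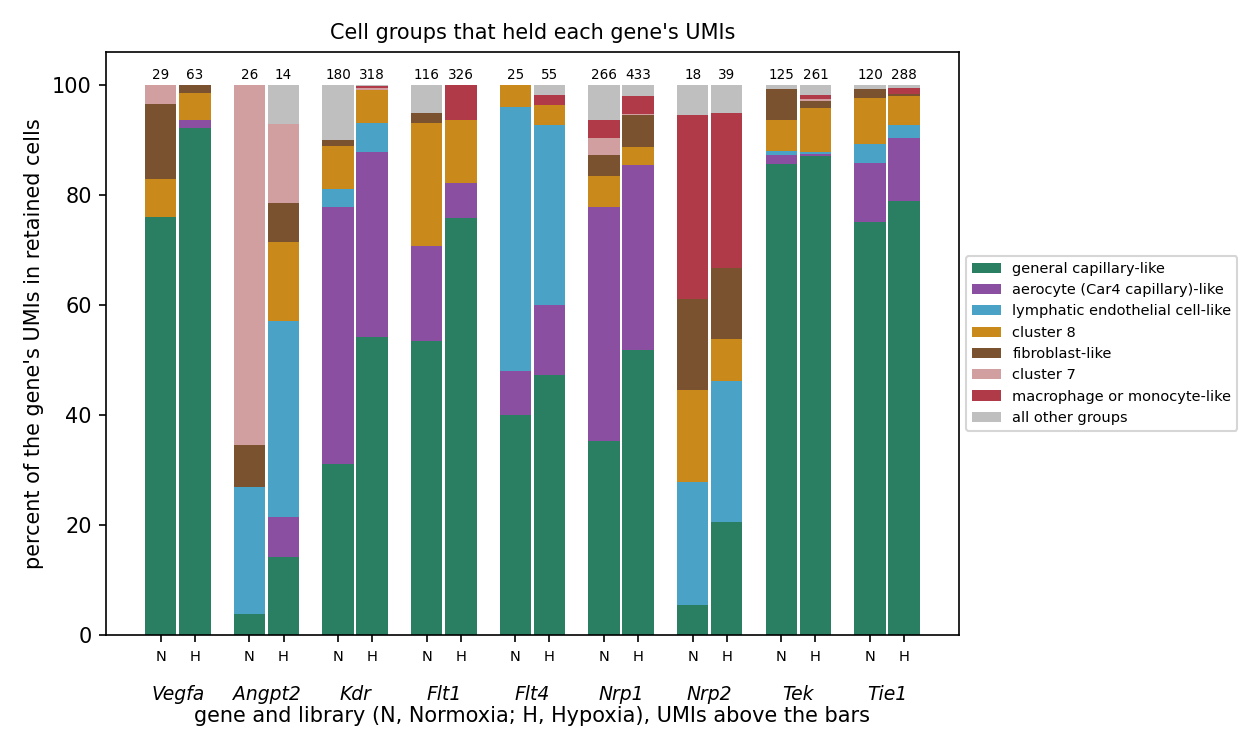
Percent of each gene's UMIs (vertical axis) that lay in each cell group, for the Normoxia (N) and Hypoxia (H) libraries, with the number of UMIs above each bar. General capillary-like cells (green) held most Tek and Tie1 UMIs in both libraries, aerocyte-like cells (purple) a large part of Kdr and Nrp1, and cluster 7 (pink) 17 of 26 Angpt2 UMIs in Normoxia.

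Lymphocytes were used as a guide to background. Free RNA itself was not measured, and it could not be told apart from transcripts of the lymphocytes or of cells caught with them. Over 44 Normoxia and 130 Hypoxia T, NK and B cell-like cells (medians of 3889 and 2475 UMIs), Vegfa had 0 UMIs in both libraries, which allows a level of up to 14.5 and 7.63 CPM. The highest lymphocyte level in Hypoxia was 22.9 CPM for Nrp1, with a UMI in 6.15% of cells, and the next was 12.7 CPM for Tek, with a UMI in 3.85%. In Normoxia 9 Kdr UMIs, 5 Nrp1 UMIs and 2 Flt1 UMIs came from 1 T or NK cell-like cell of 17959 UMIs that also carried 11 of 12 endothelial markers. The 30 neutrophil-like cells held 0 UMIs of all 9 genes.

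**Figure D2:**
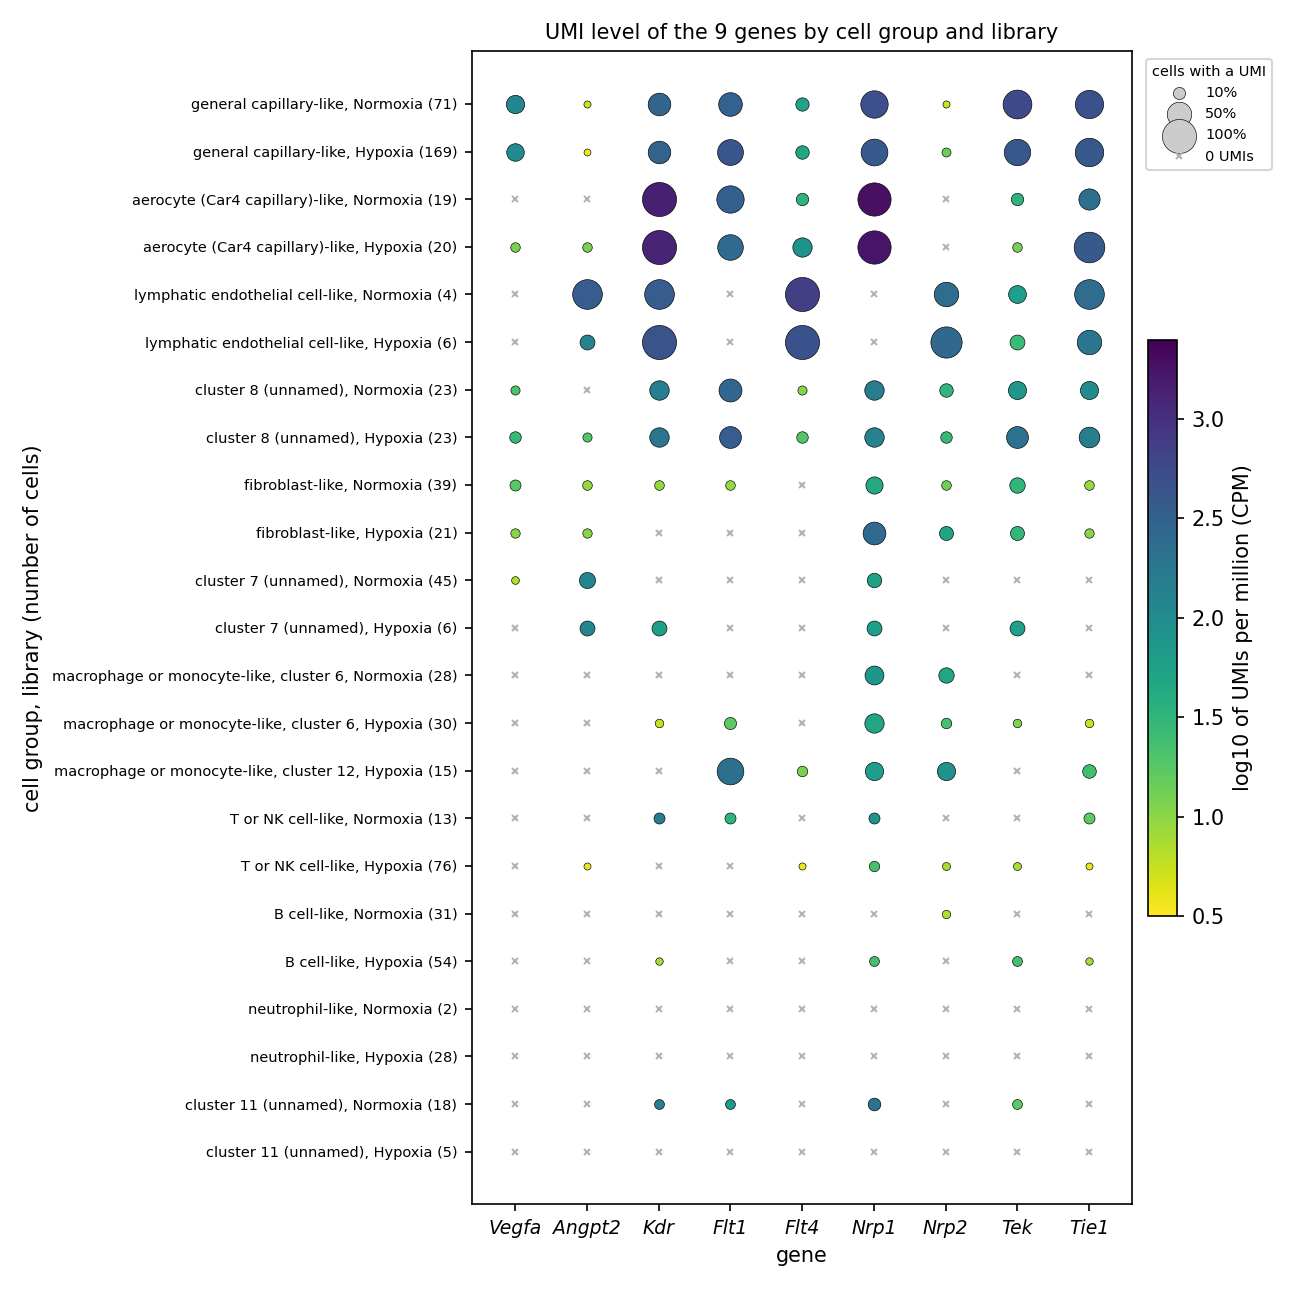
Level of each gene (colour, log10 of CPM) and percent of cells with a UMI (circle area) by cell group and library, crosses marking 0 UMIs, with the number of cells in brackets. The darkest circles are Kdr and Nrp1 in aerocyte-like cells, at 1297 to 1902 CPM.

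Among the ligands, Vegfa was carried by general capillary-like cells. In Normoxia 19 of 71 such cells held 22 UMIs, a level of 116 CPM (72.5 to 175), and in Hypoxia 41 of 169 held 58, a level of 104 CPM (78.8 to 134). No cell held more than 5. The general capillary-like levels of the libraries overlapped, with a log2 ratio of Hypoxia over Normoxia of -0.16 (-0.89 to 0.62). The capillary clusters differed in sign: Vegfa was at 83.0 and 115 CPM in cluster 1 and at 136 and 73.3 CPM in cluster 2, with intervals of both ratios holding 0. Fibroblast-like cells had 4 Vegfa UMIs in Normoxia and 1 in Hypoxia. Cluster 8, which held transcripts of epithelial markers beside endothelial ones, had 2 Vegfa UMIs in Normoxia and 3 in Hypoxia. The levels there were 21.2 and 28.8 CPM. No cluster met the rule for an epithelial name, so the epithelial source of Vegfa could not be assessed.

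Angpt2 was a gene of few cells. In Normoxia 17 of its 26 UMIs were in 9 of the 45 cells of cluster 7, which was led by Hhip, Mgp and Igfbp3. This cluster carried 6 of 10 fibroblast markers, and also 4 pericyte and 4 smooth muscle markers. It stayed unnamed, since myofibroblast markers outnumbered the fibroblast ones among its leading genes. The level there was 120 CPM (69.8 to 192) in Normoxia and 119 CPM in Hypoxia, the latter from 2 UMIs in 1 of only 6 cells. Lymphatic-like cells held 6 Angpt2 UMIs in 3 of 4 Normoxia cells and 5 in 1 of 6 Hypoxia cells. General capillary-like cells held 1 and 2. Over all retained cells Angpt2 fell from 23.4 to 8.79 CPM, a log2 ratio of -1.41 (-2.46 to -0.42), while cluster 7 went from 15.4% to 1.32% of the cells. A smaller share of the cells that carry a transcript and less transcript per cell cannot be told apart in such sums.

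The receptors divided the capillary cells, a comparison made within each library. Kdr was measured at 1414 CPM (84 UMIs) in aerocyte-like against 295 CPM (56 UMIs) in general capillary-like cells of Normoxia, and at 1297 CPM (107 UMIs) against 308 CPM (172 UMIs) in Hypoxia. The log2 difference was 2.26 (1.76 to 2.78) and 2.08 (1.71 to 2.43). All 19 and all 20 aerocyte-like cells had a Kdr UMI, against 42.3% and 42.0% of general capillary-like cells. Nrp1, the co-receptor that binds Vegfa together with Kdr, followed the same division. Its level was 1902 against 494 CPM in Normoxia and 1769 against 401 CPM in Hypoxia, with log2 differences of 1.94 (1.54 to 2.35) and 2.14 (1.83 to 2.45). Kdr and Nrp1 were found together in 18 of 19 and 19 of 20 aerocyte-like cells. Since all of these cells had a Kdr UMI, those are the counts of cells with Nrp1.

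Tek ran the other way. Aerocyte-like cells held 2 Tek UMIs in Normoxia and 1 in Hypoxia, against 107 and 227 in general capillary-like cells, so the level was 16.7-fold and 33.5-fold lower, with log2 differences of -4.06 (-7.13 to -2.17) and -5.07 (-10.38 to -2.57). Vegfa had 0 UMIs in the Normoxia aerocyte-like cells, a level 2.29-fold lower when set to the floor of 3 UMIs over the group. The upper limit of its log2 difference there was -0.78. In the Hypoxia aerocyte-like cells it had 1 UMI, an 8.56-fold lower level, with a log2 difference of -3.10 (-8.43 to -0.56). Tie1, the partner of Tek, was at 219 against 473 CPM in Normoxia, a log2 difference of -1.11 (-2.08 to -0.27), and at 400 against 406 CPM in Hypoxia, a difference of -0.02 (-0.60 to 0.51). Flt1 was at 337 against 326 CPM in Normoxia (difference 0.05, -0.76 to 0.79) and at 255 against 442 CPM in Hypoxia (difference -0.80, -1.51 to -0.15).

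Of the 7 genes with enough UMIs for this comparison, 2 were at least 2-fold higher in aerocyte-like cells of both libraries (Kdr and Nrp1), against 4.68% of the 6063 genes compared. Tek and Vegfa were at least 2-fold lower in both, against 10.7% of all genes, with 0 UMIs counted as lower. The Vegfa intervals also held differences smaller than 2-fold in both libraries. The clusters were made without these genes but from genes of the same cells, so the differences describe the clusters and are no test.

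**Figure D3:**
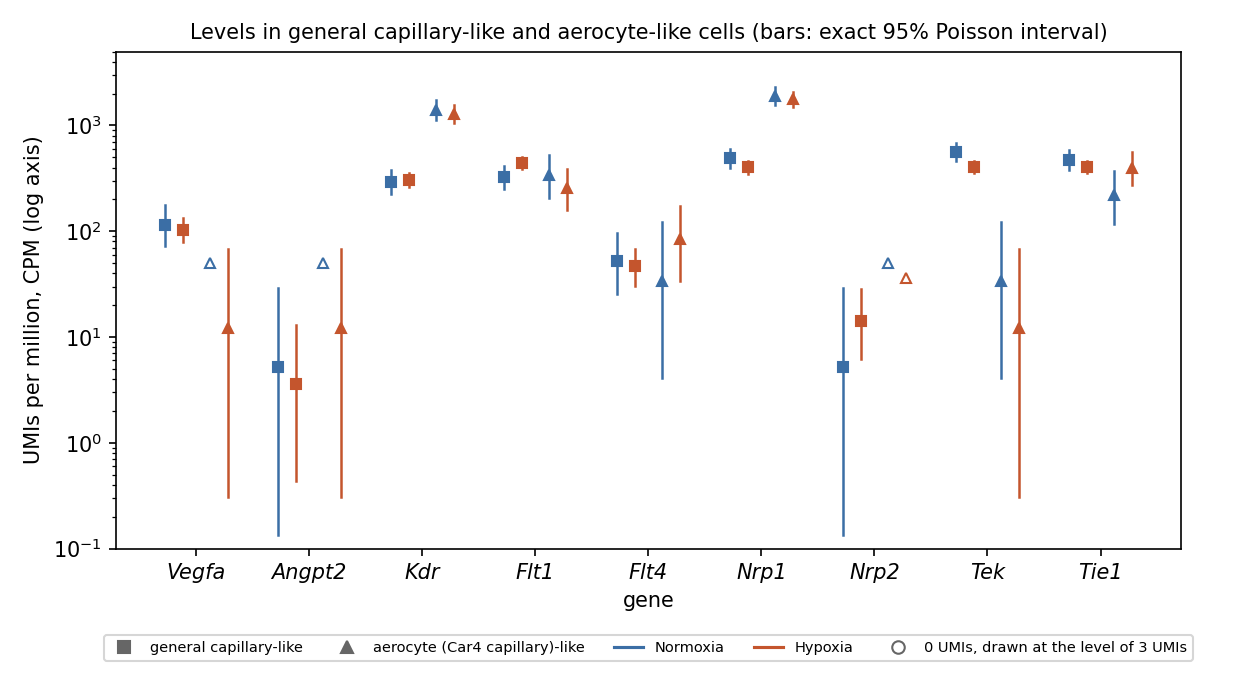
Level of each gene (CPM, log axis) in general capillary-like (squares) and aerocyte-like cells (triangles) of the Normoxia (blue) and Hypoxia (orange) libraries, with exact Poisson intervals and open symbols for 0 UMIs drawn at the level of 3 UMIs. Kdr and Nrp1 were higher and Tek lower in aerocyte-like cells of both libraries, without overlap of the intervals.

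Lymphatic-like cells, 4 and 6 in number, had their own set. Flt4, the receptor of the lymphatic growth factors, had 12 UMIs in 4 of 4 Normoxia cells and 18 UMIs in 6 of 6 Hypoxia cells, or 726 CPM (375 to 1268) and 481 CPM (285 to 760). General capillary-like cells had 52.6 and 46.5 CPM. Nrp2, the co-receptor that pairs with Flt4, was found in 2 of 4 and 5 of 6 lymphatic-like cells at 242 and 267 CPM, and at 5.26 and 14.3 CPM in general capillary-like cells. All 6 Hypoxia and 3 of the 4 Normoxia lymphatic-like cells had a Kdr UMI. Flt1, Nrp1 and Vegfa were at 0 in these 10 cells.

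The design compared hypoxia with untreated mice. Summed over all retained cells, 8 of the 9 genes had a log2 ratio of Hypoxia over Normoxia above 0 and 1 below. Among all 9813 genes with at least 20 UMIs, 53.7% were above 0. The 9 genes had a median of 0.60, against 0.04 over the 9813. None was 2-fold higher, against 6.21% of all genes, and Angpt2 was at least 2-fold lower, against 8.13% of all genes. Flt1 came closest, with 116 and 326 UMIs, 104 and 205 CPM and a log2 ratio of 0.97 (0.66 to 1.29). Tie1 (0.75, 0.43 to 1.07), Tek (0.54, 0.23 to 0.86) and Kdr (0.30, 0.04 to 0.58) also had intervals above 0. With equal weight for every cell the ratios were 0.40 for Flt1, 0.33 for Tie1, 0.087 for Tek and -0.25 for Kdr. With every cell thinned to 1000 UMIs the interval of Flt1 stayed above 0 (0.79, 0.19 to 1.42), while those of Tie1 (0.30, -0.25 to 0.87), Tek (-0.11, -0.63 to 0.43) and Kdr (-0.44, -0.996 to 0.12) held 0. The share of endothelial cell-like cells moved with these sums, from 94 of 293 to 195 of 453 cells.

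Within endothelial cell-like cells the ratios lay nearer to 0 or below it. None of the 8 genes with at least 20 UMIs was 2-fold higher or lower, against 6.2% and 4.44% of the 6287 genes compared. 3 of them were above 0 and 5 below, while 49.1% of all genes were above 0. Their median log2 ratio was -0.15 against -0.02 over all genes. Angpt2, the remaining gene, had 7 and 8 UMIs. Nrp1 was lower in Hypoxia, at 778 against 545 CPM with a log2 ratio of -0.51 (-0.76 to -0.26), and so was Kdr, at 549 against 436 CPM (-0.33, -0.62 to -0.04). In the same cells the summed list of 12 endothelial markers went from 22050.8 to 18041.5 CPM. The part of that change in the Nrp1 and Kdr ratios was not tested. The makeup of the class also differed, with 19 aerocyte-like cells among 94 endothelial cell-like cells in Normoxia and 20 among 195 in Hypoxia, and its part in these ratios was not tested. Within aerocyte-like cells the ratio was -0.10 (-0.47 to 0.26) for Nrp1 and -0.13 (-0.55 to 0.30) for Kdr, and within general capillary-like cells it was -0.30 (-0.66 to 0.06) and 0.06 (-0.38 to 0.53). With the subclasses weighted alike in both libraries the Kdr ratio was -0.0062 and the Nrp1 ratio -0.22. With every cell thinned to 1000 UMIs the Kdr ratio was -0.94 over endothelial cell-like cells, -0.61 (-1.51 to 0.26) within aerocyte-like and -0.56 (-1.46 to 0.37) within general capillary-like cells, while that of Nrp1 was -0.52, -0.21 and -0.25. Within aerocyte-like and general capillary-like cells the Kdr intervals, full or thinned, were wide and held 0, so its direction there was not settled at this depth.

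Tek, the angiopoietin receptor, was lower in Hypoxia among general capillary-like cells. Its level was 563 CPM (461 to 680) in Normoxia, from 107 UMIs in 50 of 71 cells, and 406 CPM (355 to 463) in Hypoxia, from 227 UMIs in 99 of 169 cells, with a log2 ratio of -0.47 (-0.81 to -0.13). Both capillary clusters were lower, by 0.49 (cluster 1) and 0.51 (cluster 2) on the log2 scale, each alone with an interval that just reached 0. The summed list of 12 endothelial markers also went from 21716 to 17648 CPM in general capillary-like cells, and its part in the Tek result was not tested. With every cell thinned to 1000 UMIs, which left out 2 and 5 shallower cells, 53.6% of 69 Normoxia cells and 29.9% of 164 Hypoxia cells had a Tek UMI. That was a difference of -23.7 percentage points (-36.7 to -9.95, Newcombe interval), against 70.4% and 58.6% of cells before thinning. In lymphocytes the thinned share was 0% and 0.775%. The thinned log2 ratio was -0.97 (-1.53 to -0.40), larger in size than the ratio of the full sums.

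In cluster 8 the Tek ratio had the opposite sign, from 7 UMIs in 6 of 23 cells of Normoxia and 21 UMIs in 9 of 23 cells of Hypoxia. Its log2 ratio there was 1.45 (0.16 to 2.92). The cells of this cluster were uneven. At least 4 of 12 endothelial markers were found in 11 of its Normoxia and 16 of its Hypoxia cells, and the summed endothelial list was at 4032 and 6270 CPM. One of its Hypoxia cells, with 27369 UMIs, carried a barcode found in both libraries, and without such barcodes the ratio was 1.89 (0.60 to 3.37). With cluster 8 counted among the endothelial cell-like cells the ratio of Tek over the class went from -0.29 (-0.63 to 0.05) to -0.02 (-0.35 to 0.31). The part of cluster 8's makeup in the Tek result was not tested.

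Among general capillary-like cells Flt1 was the receptor whose interval lay above 0, while Kdr and Nrp2 had ratios above 0 with intervals that held 0. Its level was 326 CPM in Normoxia, from 62 UMIs in 33 of 71 cells, and 442 CPM in Hypoxia, from 247 UMIs in 95 of 169 cells, with a log2 ratio of 0.44 (0.03 to 0.86). The thinned share of cells with a UMI, 20.3% and 31.7%, differed by 11.4 points with an interval that reached 0 (-1.37 to 22.2). In aerocyte-like cells the Flt1 ratio was -0.40 (-1.36 to 0.56) on 20 and 21 UMIs, and in cluster 8 it was 0.37 (-0.39 to 1.15). Tie1 was at 473 and 406 CPM in general capillary-like cells (-0.22, -0.58 to 0.15) and at 219 and 400 CPM in aerocyte-like cells (0.87, -0.09 to 1.92). Flt4 and Nrp2 had too few UMIs in endothelial cell-like cells for a ratio of any precision, with intervals of -0.99 to 0.50 and -0.99 to 2.28.

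**Figure D4:**
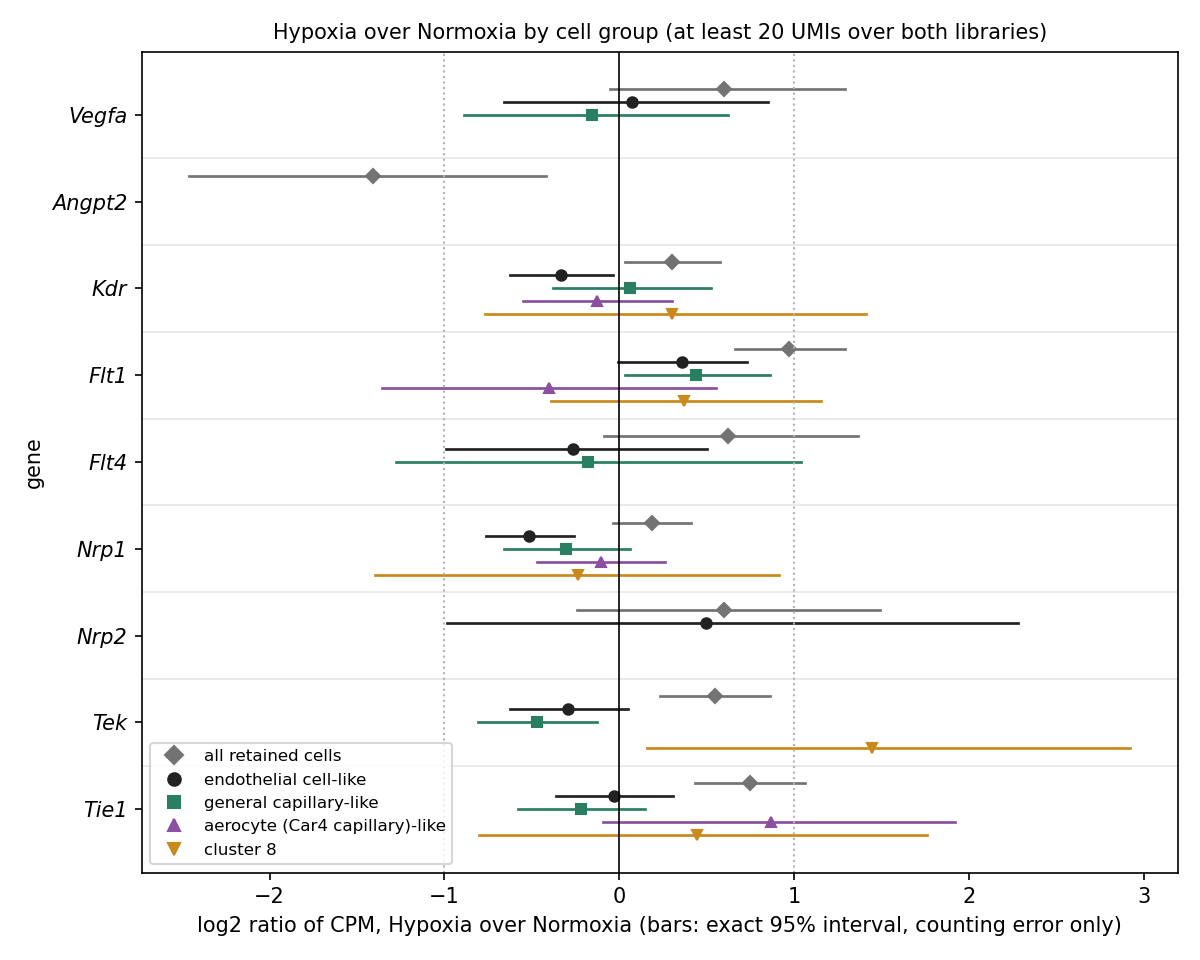
Log2 ratio of CPM, Hypoxia over Normoxia, with its exact interval, for each gene in all retained cells and in 4 endothelial groups, shown where both libraries together held at least 20 UMIs. All 8 genes with a ratio above 0 in all retained cells (grey) had a lower one in endothelial cell-like cells (black), and Tek was below 0 in general capillary-like cells (green) and above 0 in cluster 8 (ochre).

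Outside the endothelium the receptors had a few carriers. Flt1, known in monocytes as the receptor through which they sense Vegfa and placental growth factor, had 18 UMIs in 9 of the 15 cells of cluster 12, a macrophage or monocyte-like cluster led by Chil3 and Ear2 that held Hypoxia cells and 0 Normoxia cells. The level was 217 CPM (129 to 343), and 10 of the 15 cells had 0 endothelial markers. Cluster 6, the other macrophage or monocyte-like cluster, had 0 Flt1 UMIs in 28 Normoxia cells and 3 in 30 Hypoxia cells (16.7 CPM). With no Normoxia cells in cluster 12, its Flt1 level could not be compared between the libraries. Nrp1 was found in 8 of 28 and 13 of 45 macrophage or monocyte-like cells and Nrp2 in 5 of 28 and 6 of 45.

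Nrp1 was higher in fibroblast-like cells of Hypoxia. Its level was 45.1 CPM (21.6 to 82.9) in Normoxia, from 10 UMIs in 9 of 39 cells, and 257 CPM (166 to 379) in Hypoxia, from 25 UMIs in 9 of 21 cells, with a log2 ratio of 2.51 (1.40 to 3.73). One Hypoxia cell held 8 of the 25 UMIs, and without the highest cell of each library the ratio was 2.28 (1.00 to 3.71). After thinning, 0 of 38 Normoxia cells and 4 of 16 Hypoxia cells (25%, 7.27 to 52.4) had a UMI, with 1 and 5 cells left out. At least 4 endothelial markers were found in 3 of 39 and 1 of 21 of these cells.

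The other pathway genes came from a list of 71 ligands, plexins, regulators and signalling or target genes. In endothelial cell-like cells 44 of them had at least 20 UMIs. Of these, 25 had a log2 ratio above 0 and 19 below, while 49.1% of all genes were above 0. The median of the 44 was 0.03. 3 were at least 2-fold higher and 2 at least 2-fold lower, against 6.2% and 4.44% of all genes. Of the 5, the intervals of Vegfc, Nos3 and Dll4 left out 0.

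Vegfc, the ligand of Flt4, was the VEGF family ligand with most UMIs in these cells over both libraries, though in Normoxia Vegfa had more (22 against 15). All of these Vegfc UMIs lay in the general capillary-like ones. Its level was 78.9 CPM in Normoxia, from 15 UMIs in 9 of 71 cells, and 191 CPM in Hypoxia, from 107 UMIs in 54 of 169 cells, with a log2 ratio of 1.28 (0.49 to 2.17). By cluster the ratio was 0.74 (-0.25 to 1.92) in cluster 1 and 1.53 (0.18 to 3.12) in cluster 2. Over all endothelial cell-like cells its ratio was 1.48 (0.70 to 2.37). Nos3, the endothelial nitric oxide synthase that lies downstream of Kdr, had 5 and 37 UMIs and a ratio of 1.54 (0.19 to 3.24). Its interval within general capillary-like cells reached 0 (1.29, -0.06 to 3.00). In cluster 1 Nos3 was at 55.4 and 63.6 CPM (0.20, -1.33 to 2.18), and in cluster 2 it had 1 and 10 UMIs (2.97, 0.16 to 8.41).

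Dll4, the Notch ligand that Vegfa induces in tip cells, was lower in Hypoxia, with 37 UMIs among 94 and 21 among 195 endothelial cell-like cells, 139 and 30.9 CPM and a log2 ratio of -2.17 (-3.02 to -1.36). It was lower within general capillary-like cells (-1.99, -2.99 to -1.02) and within aerocyte-like cells (-2.70, -5.14 to -0.86), the latter on 14 and 3 UMIs. In cluster 8 it had 2 and 5 UMIs. Of the other genes of this group with enough UMIs, Pdgfb, the growth factor that recruits pericytes, was at 143 and 222 CPM (0.64, 0.12 to 1.19), while Apln, Plaur, Rcan1 and Unc5b had intervals that held 0.

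By group, all 3 class 3 semaphorins with enough UMIs were above 0, as were 49.1% of all genes. Sema3c, with most UMIs, was at 1361 and 1616 CPM (0.25, 0.08 to 0.42), though at 1878 and 1916 CPM within general capillary-like cells (0.03, -0.14 to 0.21). Of 3 plexins, 2 were above 0, and Plxna1, with most UMIs, was at -0.59 (-1.32 to 0.17), while Plxnd1 was at 0.97 (0.02 to 2.05). Of 7 receptor regulators, 2 were above 0 and 5 below, with 0 intervals that left out 0. The leading one was Ptprb, the phosphatase that restrains Tek, at 943 and 928 CPM (-0.02, -0.24 to 0.19). Of 20 genes of VEGF receptor signalling, 13 were above 0 and 7 below, and Cdc42 had most UMIs (-0.27, -0.52 to -0.02). Its interval was the 1 below 0 in this group, and 3 lay above 0, those of Nos3, Hspb1 (0.54, 0.19 to 0.90) and Rasip1 (0.50, 0.16 to 0.85). Of 4 genes of TIE2 signalling, 2 were above 0 and 2 below, with Foxo1, the transcription factor that Tek holds in check, at 0.36 (-0.52 to 1.34).

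**Figure D5:**
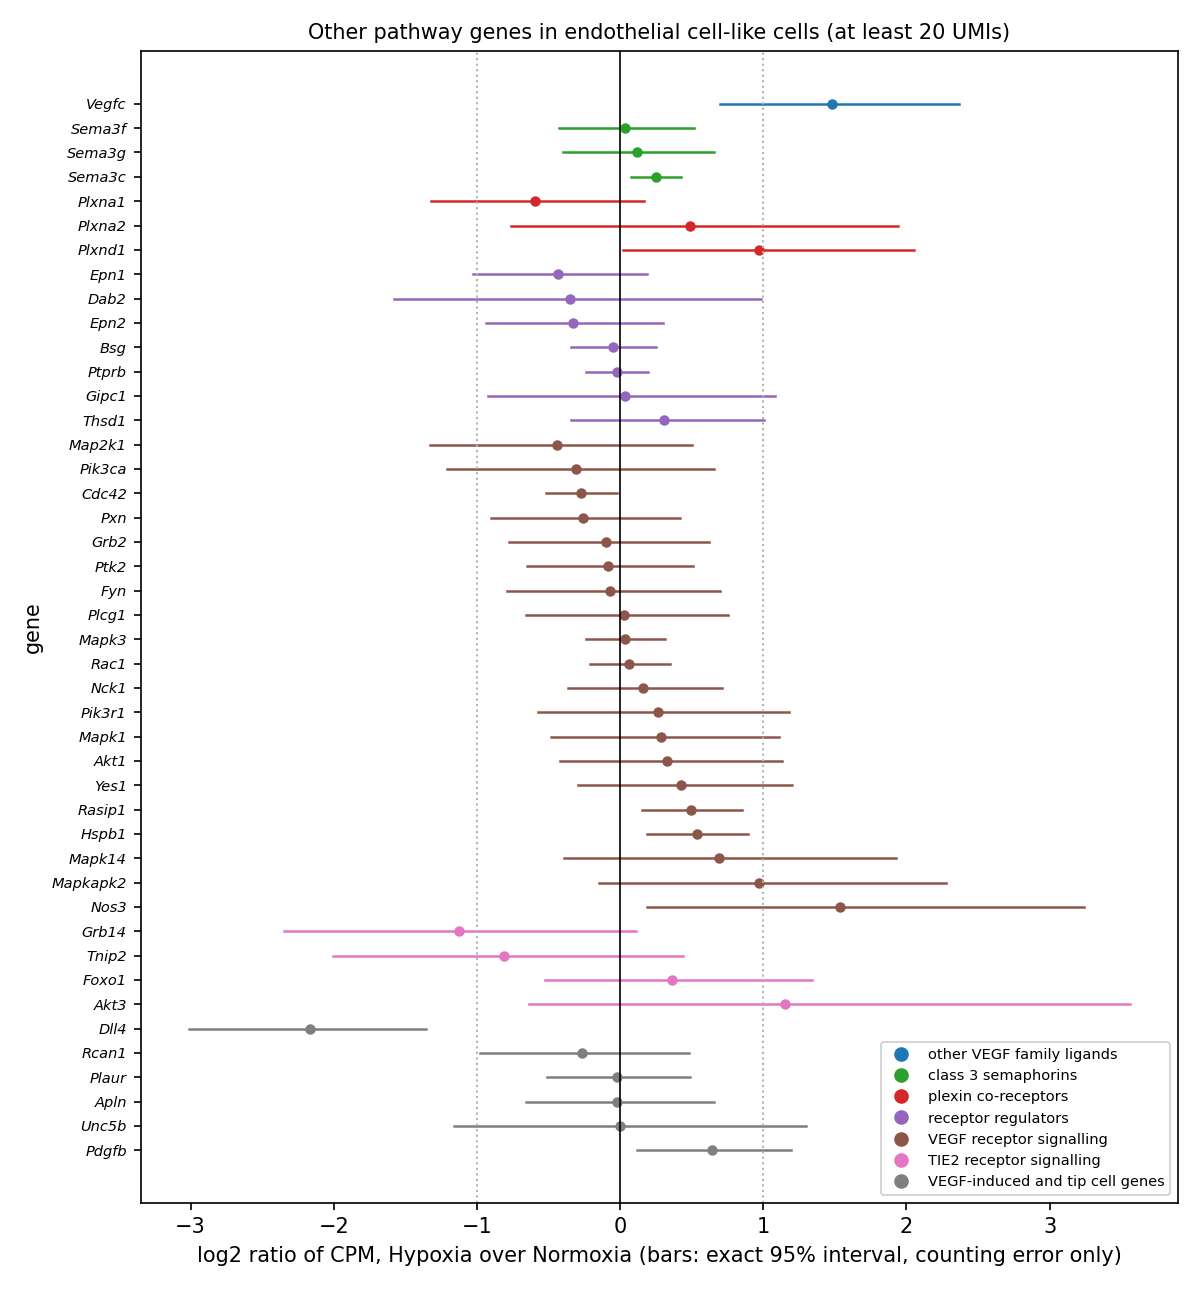
Log2 ratio of CPM, Hypoxia over Normoxia, in endothelial cell-like cells for the 44 other pathway genes with at least 20 UMIs, coloured by group, with exact intervals and dotted lines at 2-fold. Most intervals span 0, Vegfc and Nos3 lie to the right and Dll4 to the left.

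Among the ligands scarce in endothelial cell-like cells, Vegfd lay mainly in fibroblast-like cells in both libraries. Vegfb did not, with 3 of 14 Normoxia and 15 of 25 Hypoxia UMIs in endothelial cell-like cells. Vegfd had 22 of its 27 Normoxia UMIs and all 18 Hypoxia UMIs in fibroblast-like cells, and Pgf, placental growth factor, had 13 of 18 Normoxia UMIs there and 1 of 6 in Hypoxia. Angpt1, the ligand that activates Tek, had 3 and 5 UMIs in all, of which 2 and 4 were in fibroblast-like cells.

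The pattern of each gene over 19 sets (a cluster in 1 library, with at least 15 cells) was compared with that of 4061 genes by Pearson's r of log2(CPM + 10). Kdr lay nearest to Stmn2 (0.97), Ecscr (0.96) and Bcam (0.96), and Nrp1 to Fkbp1a (0.94), Bmpr2 (0.91) and Kitl (0.91). Flt1 lay nearest to Pdgfb (0.92), Podxl (0.92) and Cracr2b (0.91). Tek lay nearest to Sema3g (0.93), Bmp6 (0.93) and Hey1 (0.93), and Tie1 to Afap1l1 (0.98), Cyyr1 (0.97) and Clec1a (0.97). The sets share libraries and differ in depth, so these values describe likeness alone. The other 4 genes had under 100 UMIs.

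Detection in single cells was partial. General capillary-like cells had a median of 3 of the 9 genes with a UMI in both libraries, and 68 of 71 and 164 of 169 of them had a UMI of at least 1 receptor. Tek and Tie1, which act as a pair, were found together in 47.9% of the Normoxia cells (34 of 71, interval 35.9 to 60.1) and in 39.6% of the Hypoxia cells (67 of 169, interval 32.2 to 47.4). Tek was found in 50 and Tie1 in 48 of the 71 Normoxia cells, and in 99 and 116 of the 169 Hypoxia cells. Whether they met more often than these separate counts give was not tested. A general capillary-like cell with UMIs of both Vegfa and its receptor Kdr was seen 9 times in Normoxia and 18 times in Hypoxia. Vegfa was found in 19 and 41 of these cells and Kdr in 30 and 71. At this depth a gene without a UMI in a cell cannot be called absent from it.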

How the data were processed

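The data were 2 droplet libraries of mouse lung cells, each a matrix of raw UMI counts that the authors deposited. Per the labels, the file headers and the study's methods, reads were mapped to mm10 with STAR and counted with Cell Ranger (3.1.0). Strand handling is not given in the sources used here. Although the labels mention replicates, each group came as a single matrix.

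The 9 genes and all lists were chosen with earlier results of these data known. Following the study's methods, cells needed 200 to 6000 genes and no more than 5% mitochondrial UMIs. Both libraries were clustered jointly with scanpy 1.11.5 (2000 variable genes without the 9 genes and the pathway list, 15 components, 15 neighbours, Leiden resolution 1). A marker counted for a cluster when at least 25% of its cells had it and its CPM was at least 2 times the median cluster's. Naming a cluster needed at least 3 markers of 1 class, more than of any other class, and no lead of another class among its 10 leading genes. Doublets were kept. Scrublet marked 1 Normoxia and 2 Hypoxia cells.

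CPM values were made from UMIs summed per library and cell group. Intervals were exact at 95% (Poisson for levels, conditional binomial for ratios, Clopper-Pearson for shares) or Newcombe's for differences of shares. Where 0 UMIs were seen, the floor was 3. Pathway genes were named when at least 2-fold changed with an interval leaving out 0, or when they had most UMIs of their group. The other pathway genes, and cells singled out, were named after their values were seen. The ratio calculation was tested on simulated counts. Positions come from GENCODE M21, promoters from RefSeq. Alternatives changed filters, clustering, scaling and weighting.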

Additional observations from a re-analysis of the deposited data

Results flagged for a closer look

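The barcodes left out by the filters, 80 in Normoxia and 160 in Hypoxia, held transcripts of these genes above the limit that a count of 0 allows. The UMIs there were 6 in Normoxia and 12 in Hypoxia for Vegfa, 23 and 39 for Kdr, 14 and 82 for Flt1, 17 and 46 for Nrp1, 8 and 17 for Nrp2, 20 and 53 for Tek and 11 and 44 for Tie1. Angpt2 had 8 and Flt4 had 6 in the Hypoxia barcodes. The report's comparisons do not use these barcodes.

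For 2 genes the libraries differed in opposite directions in different cell groups, which was not tested. The log2 ratio of Hypoxia over Normoxia of Nrp1 was 2.51 in fibroblast-like and -0.51 in endothelial cell-like cells, and that of Tek was 1.45 in cluster 8 and -0.47 in general capillary-like cells.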

How the results depend on the processing

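No paired analysis was possible because each group had 1 library. In endothelial cell-like cells 183 of 197 recomputed ratios over 22 settings, and over all retained cells 81 of 90 over 10 settings, stayed within the interval of the reported value, and 167 and 85 kept its sign. The number of genes with most UMIs in endothelial cell-like cells was 6 or 7 in Normoxia and 7 to 9 in Hypoxia over 12 settings. Other filters or clusterings gave 93 to 128 Normoxia and 185 to 267 Hypoxia endothelial cell-like cells.

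Over all retained cells, equal weight per cell turned the Kdr ratio to -0.25 and moved Flt1 to 0.40, Tek to 0.087 and Tie1 to 0.33. Thinning to 1000 UMIs turned Kdr to -0.44 and Tek to -0.11 and moved Vegfa to -0.20, Angpt2 to -2.54 and Tie1 to 0.30. Both remove the greater weight of deep cells. In endothelial cell-like cells thinning moved Kdr to -0.94 and Tek to -0.74, and could give no Angpt2 value. A maximum of 4000 genes moved Nrp2 to -1.12, and the cause was not tested.

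Without cluster 1 the ratios were -0.89 for Vegfa, 0.13 for Kdr (a turned sign), -0.15 for Nrp1 and -0.66 for Tek. Without cluster 2 they were 1.16 for Vegfa, then the 1 gene past 2-fold, -0.75 for Kdr, -0.81 for Nrp1 and 0.090 for Tek. Without cluster 9, the aerocyte-like cells, Kdr turned to 0.079. The same subclass mix in both libraries, added after the data had been seen, gave -0.0062 for Kdr and -0.22 for Nrp1. Depth limits Angpt2, Flt4, Nrp2 and the 10 lymphatic-like cells most.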
